A study of Homo sapiens with 6 samples.

Results

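The mRNAs of 9 phospholipase C isozymes were compared between HEK293 cells given the inhibitor GSK-A1 and HEK293 cells given its solvent. The genes were PLCB1, PLCB3 and PLCB4 of the beta class, PLCG1 and PLCG2 of the gamma class, PLCD1 and PLCD3 of the delta class, PLCH1 of the eta class and PLCE1, the epsilon isozyme. They were found by symbol among the 63140 genes of the deposited table, and all 9 were among the 16754 genes with enough counts to be tested. HEK293 is a human line grown from embryonic kidney. Per the labels, confluent HEK293 cultures received 100 nM GSK-A1, an inhibitor of the kinase encoded by PI4KA, for 24 h, and the 3 control libraries came from HEK293 cells given dimethyl sulfoxide (DMSO). There were 3 libraries per group, which the titles call biological replicates. Nothing else says how the cultures were separated, so p-values measure the spread between these libraries.

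Phospholipase C enzymes cut phosphatidylinositol 4,5-bisphosphate in the plasma membrane into inositol trisphosphate (IP3), which opens calcium channels of the endoplasmic reticulum, and diacylglycerol, which recruits protein kinase C. Their substrate is made by phosphorylating phosphatidylinositol 4-phosphate, the product of the enzyme that GSK-A1 inhibits. The classes share a catalytic core and differ in what switches them on: heterotrimeric G proteins of the Gq family for beta, tyrosine kinases for gamma, calcium for delta and eta, and small GTPases for epsilon.

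Total counts were 33040178 to 47777233 per library, of which 11086 to 16887 fell on the 9 isozymes together. The Pearson correlation of log2 expression across tested genes ranged from 0.9966 to 0.9971 among DMSO libraries. Among GSK-A1 libraries it was 0.9969 for replicates 1 and 3 but 0.9951 and 0.9942 where replicate 2 was one of the pair, so GSK-A1 replicate 2 stood somewhat apart. The cytoskeletal markers VIM, NEFL, KRT8 and KRT18 were present at group means of 110 to 1217 CPM and the kidney factor LHX1 at 15.3 and 14.9 CPM, while NEFM and INA were near 0. CPM are counts scaled to the library total with TMM factors (trimmed mean of M-values). Of the 6 tested markers of HEK293, VIM and KRT8 were called higher and PAX2 lower with GSK-A1, and their summed level was 2037 to 2110 CPM with DMSO and 2184 to 2375 CPM with GSK-A1. PAX2 lost its call in DESeq2 (adjusted p = 0.0804), with the GC trend removed (0.0507) and when DMSO replicate 1 or 3 or GSK-A1 replicate 1 was left out. KRT8 lost it under upper-quartile scaling (0.164) and when any 1 of the DMSO libraries or GSK-A1 replicate 1 was left out. Whether these markers bear on the isozymes was not tested. Markers of blood cells summed to at most 0.944 CPM in any library, with HBB at 0 in all of them, endothelial markers to at most 0.286 CPM, liver markers to at most 1.08 CPM and muscle and neural markers to at most 2.69 CPM. PI4KA itself stood at 187, 179 and 188 CPM with DMSO and 182, 171 and 184 CPM with GSK-A1, and did not pass the test (-0.04 ± 0.04 on the log2 scale, adjusted p = 0.456 in edgeR).

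Of the 9 isozymes, 3 were lower with GSK-A1 and 0 were higher, by edgeR's quasi-likelihood test at an adjusted p under 0.05. The 3 were PLCG1, PLCH1 and PLCD1, and the reductions were small. PLCG1 fell by 10.7%, PLCH1 fell by 12.9% and PLCD1 fell by 25.8%. Across all genes tested, 10.9% were called lower and 12.0% higher. At an unadjusted p under 0.05 there were 4 lower and 0 higher isozymes, with PLCB1 as the addition. Of all 16754 tested genes, 6001 had an unadjusted p under 0.05, counting both directions. DESeq2 called 1 isozyme lower, PLCG1, and limma-voom called 2, PLCG1 and PLCH1, with 0 higher in either. Across all genes, DESeq2 called 7.56% lower and limma-voom 10.4%. In 5 isozymes all GSK-A1 libraries lay below all DMSO libraries, which was so for 20.4% of all tested genes. These 5 were the called genes together with PLCB1 and PLCB4. No isozyme had all GSK-A1 libraries above the DMSO libraries, against 20.2% of all tested genes. The median log2 fold change of the 9 was -0.13, against -0.01 for all tested genes, and 8 of the 9 values were negative, as were 52.5% of all values. The signs of PLCB3, PLCD3, PLCE1 and PLCG2 turned under at least 1 other setting. Of all calls 52.3% were higher with GSK-A1, a share that was 33.3% under upper-quartile scaling and 64.5% with the GC trend removed. Under both of these settings PLCG1 and PLCH1 were still called lower. The count of isozymes called lower was 1 (PLCG1) when DMSO replicate 1 or DMSO replicate 3 was left out, and 2 when any of the other 4 libraries was left out. PLCG1 was among the calls each time. The share of all tested genes called lower in these fits ranged from 5.93% (without DMSO replicate 3) to 12.9% (without GSK-A1 replicate 2).

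**Figure D1:**
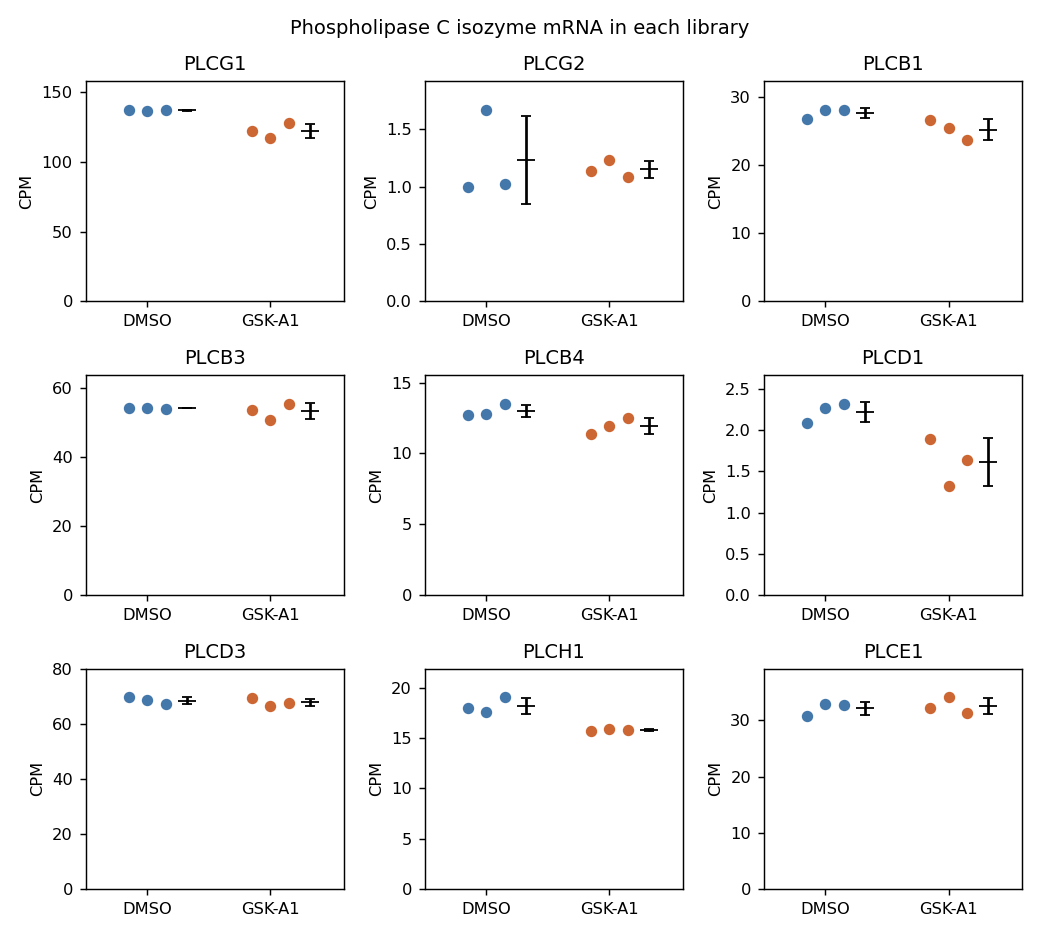
Expression in CPM (vertical axis, from 0) of each isozyme in the 3 DMSO libraries (blue) and the 3 GSK-A1 libraries (orange), with the mean and SD in black beside the points. PLCG1, PLCH1 and PLCD1 show GSK-A1 points below every DMSO point, while those of PLCB3, PLCD3, PLCE1 and PLCG2 overlap.

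In bulk RNA a lower level can mean fewer cells that express a gene or less RNA per cell, and these cannot be told apart here. None of the 9 longest transcripts shared more than 3.11% of its 50-base stretches with another gene in the annotation. The highest share was that of PLCG2, and 5 isozymes shared none.

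The sequence ahead of the start site is shown for the called gene PLCH1 and for PLCB3 and PLCE1, which were not called, to set these windows side by side. The PLCE1 window precedes a RefSeq start that lies inside the gene as GENCODE 29 annotates it, downstream of the gene's first start, so it is not the window of that first start. The windows of PLCH1 and PLCB3 lie at the gene's start in GENCODE 29, and the last 7 bases of the PLCB3 window fall within its first exon there. The sequences are the 250 bases before the RefSeq start, 5′ to 3′ on the gene's strand, build GRCh38.p14: chr3:155745072-155745321 on the minus strand for PLCH1, chr11:64251280-64251529 on the plus strand for PLCB3 and chr10:94088776-94089025 on the plus strand for PLCE1. Capitals mark each GC box (GGGCGG, read on both strands) and each E-box (CACGTG).
PLCH1: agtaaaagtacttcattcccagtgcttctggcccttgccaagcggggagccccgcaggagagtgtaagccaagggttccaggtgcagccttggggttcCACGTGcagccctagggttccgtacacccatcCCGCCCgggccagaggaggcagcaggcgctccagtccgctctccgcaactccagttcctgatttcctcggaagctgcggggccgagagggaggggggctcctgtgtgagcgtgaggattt
PLCB3: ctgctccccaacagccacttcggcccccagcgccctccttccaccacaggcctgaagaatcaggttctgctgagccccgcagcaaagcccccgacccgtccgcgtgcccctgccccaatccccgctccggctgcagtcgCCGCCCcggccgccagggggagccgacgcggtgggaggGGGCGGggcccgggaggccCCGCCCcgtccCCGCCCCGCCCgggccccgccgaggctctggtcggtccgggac
PLCE1: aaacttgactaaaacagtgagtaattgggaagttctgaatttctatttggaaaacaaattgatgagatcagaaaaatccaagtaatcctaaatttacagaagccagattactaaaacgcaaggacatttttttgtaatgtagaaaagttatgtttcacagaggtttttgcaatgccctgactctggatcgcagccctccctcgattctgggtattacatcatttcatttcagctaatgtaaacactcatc

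PLCH1 held 1 GC box and 1 E-box in this window, PLCB3 held 5 GC boxes and PLCE1 held 0 of either. The windows of PLCG1 (3 GC boxes), PLCD3 (6) and PLCG2 (1) are not printed. For PLCG1 and PLCD3 this is because 250 and 67 of their bases fall within annotated exons. Like that of PLCE1, the windows of PLCG1 and PLCD3 lie inside the annotated gene, downstream of its first start. A GC box was present in 42.6% of the 35116 RefSeq windows of this length and an E-box in 6.34%. The G+C content was 63.2% for PLCH1, 78.0% for PLCB3 and 35.2% for the internal window of PLCE1. These matches describe the letters of the windows only. No window of the 6 isozymes with an entry held the EGR core GTGGGCG, the AP-1 site TGACTCA or the TATA box TATAAA. Both strands were read, and these motifs occurred in 8.53%, 4.20% and 10.7% of all windows. For PLCG1, PLCD3 and PLCE1 the motif counts do not cover the sequence before the gene's first start. PLCB1, PLCB4 and PLCD1 had no entry.

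The gamma isozymes carry SH2 domains that dock onto tyrosine-phosphorylated receptors. PLCG1 (ENSG00000124181; chr20:41136960-41196801, plus strand, GRCh38), the widely expressed gamma isozyme, stood at 136.8, 136.5 and 137.3 CPM in the DMSO libraries. It stood at 122, 117 and 128 CPM with GSK-A1. The DMSO libraries were almost identical and every GSK-A1 library lay below them. The means were 137 ± 0.4 and 122 ± 5 CPM (SD, n = 3), and the log2 fold change was -0.16 ± 0.04 (SE, 95% interval -0.25 to -0.08, adjusted p = 0.00701 in edgeR). PLCG1 had the smallest p-value of the family and was called under all 16 other fits, with adjusted p-values from 2.71e-04 to 0.0443. The size was lowest, at -0.10, when each library's trend with GC content was removed (adjusted p = 0.0198 in edgeR). The GC content of its longest transcript is 55.3%.

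Exons of ZHX3 on the opposite strand cover 2.78% of the exon length of PLCG1 and those of PLCG1-AS1 1.503%. ZHX3 stood at 35.3 ± 1.0 CPM with DMSO and 35.1 ± 1.6 CPM with GSK-A1 (log2 fold change -0.01 ± 0.05, adjusted p = 0.921 in edgeR). The antisense transcript PLCG1-AS1 was at 0.43 ± 0.07 and 0.30 ± 0.10 CPM, with a log2 fold change of -0.53 ± 0.31 (adjusted p = 0.231 in edgeR). PLCG1-AS1 had 90 counts over the 6 libraries, and the pseudogene RPL23AP81, which overlaps 111 bases of PLCG1 exon on the same strand, had 5. Their part in the PLCG1 value was not tested.

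PLCG2 (ENSG00000197943; chr16:81739097-81962693, plus strand, GRCh38) is the gamma isozyme of blood cells and was barely present. It had 48, 76 and 34 counts in the DMSO libraries and 53, 42 and 39 counts in the GSK-A1 libraries. DMSO replicate 2 was the highest library and the other 5 lay between 1.00 and 1.23 CPM. The log2 fold change was -0.12 ± 0.21 (SE, 95% interval -0.56 to 0.32, adjusted p = 0.720 in edgeR), and it turned to 0.18 without DMSO replicate 2 (adjusted p = 0.580 in edgeR). The 95% interval includes a change as large as that of PLCG1 (-0.16). What size of change was detectable at the counts of PLCG2 was not tested.

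The beta isozymes are the effectors of Gq-coupled receptors. PLCB1 (ENSG00000182621; chr20:8077251-8968360, plus strand, GRCh38) was at 26.8, 28.1 and 28.1 CPM with DMSO and at 26.6, 25.5 and 23.6 CPM with GSK-A1. The groups did not overlap, although DMSO replicate 1 and GSK-A1 replicate 1 were close. The log2 fold change of -0.13 ± 0.06 (SE, 95% interval -0.25 to -0.01) missed the threshold over all genes (adjusted p = 0.0971 in edgeR). It passed under upper-quartile scaling (-0.17, adjusted p = 0.0318 in edgeR) and with the GC trend removed (-0.14, adjusted p = 0.0443 in edgeR), and in none of the other 14 fits. Its log2 fold change was -0.08 without GSK-A1 replicate 3 (adjusted p = 0.335 in edgeR).

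PLCB4 (ENSG00000101333; chr20:9068763-9481242, plus strand, GRCh38), which lies downstream of PLCB1 on the same strand, gave similar values. Its levels were 12.7, 12.8 and 13.5 CPM with DMSO and 11.4, 12.0 and 12.5 CPM with GSK-A1. All GSK-A1 libraries were again the lower ones, by a narrow margin between GSK-A1 replicate 3 and DMSO replicate 1. The log2 fold change was -0.13 ± 0.07 (SE, 95% interval -0.26 to 0.01, adjusted p = 0.183 in edgeR), and it was called only in limma-voom with library weights (-0.16, adjusted p = 0.0457), out of 16 other fits. Without GSK-A1 replicate 1 it was -0.08 (adjusted p = 0.497 in edgeR).

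PLCB3 (ENSG00000149782; chr11:64251523-64269150, plus strand, GRCh38), which also responds to G protein beta-gamma subunits, showed no such pattern. It stood at 54.2, 54.3 and 54.0 CPM with DMSO and 53.7, 50.8 and 55.5 CPM with GSK-A1. The GSK-A1 libraries lay on both sides of the DMSO libraries. The log2 fold change was -0.02 ± 0.04 (SE, adjusted p = 0.756 in edgeR), with a 95% interval of -0.12 to 0.07. Its sign turned to 0.08 with the GC trend removed and to 0.01 without GSK-A1 replicate 2.

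The delta isozymes are activated by calcium, and PLCD1 binds its substrate lipid through a pleckstrin homology domain. PLCD1 (ENSG00000187091; chr3:38007496-38029762, minus strand, GRCh38) had 100, 103 and 77 counts with DMSO, or 2.09, 2.26 and 2.32 CPM. It had 88, 45 and 59 counts with GSK-A1, or 1.89, 1.32 and 1.64 CPM. GSK-A1 replicate 2 was the lowest library, and no GSK-A1 library reached a DMSO library. The means were 2.22 ± 0.12 and 1.61 ± 0.29 CPM (SD, n = 3). PLCD1 fell by 0.43 ± 0.15 on the log2 scale (SE, 95% interval -0.75 to -0.11), the largest fold change of the 9, with an adjusted p of 0.0470 in edgeR. The call was marginal and held in 7 of the 16 other fits. It was lost in DESeq2 (adjusted p = 0.121), in limma-voom (0.0552), with library weights (0.0610) and with the GC trend removed (-0.35, adjusted p = 0.0771 in edgeR). It was also lost without DMSO replicate 1, 2 or 3 (adjusted p = 0.0796, 0.133 and 0.129 in edgeR) and without GSK-A1 replicate 2 or 3 (0.133 and 0.0807), with log2 fold changes of -0.48 to -0.31.

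PLCD3 (ENSG00000161714; chr17:45108967-45133354, minus strand, GRCh38) was far more abundant than PLCD1 per length. It stood at 69.7, 68.7 and 67.2 CPM with DMSO and 69.4, 66.7 and 67.8 CPM with GSK-A1. The groups overlapped throughout. The log2 fold change was -0.01 ± 0.04 (SE, 95% interval -0.10 to 0.07, adjusted p = 0.854 in edgeR), and removing the GC trend brought it to 0.08. Opposite-strand exons of ACBD4 cover 1.84% of its exon length and those of NMT1 0.742%. ACBD4 was lower with GSK-A1 (log2 fold change -0.24 ± 0.07, adjusted p = 0.0274 in edgeR), and its part in the PLCD3 value was not tested.

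PLCH1 (ENSG00000114805; chr3:155375580-155745067, minus strand, GRCh38), a calcium-sensitive isozyme best known from neurons, stood at 18.0, 17.6 and 19.1 CPM with DMSO. It stood at 15.7, 15.9 and 15.8 CPM with GSK-A1. The GSK-A1 libraries were almost equal and lay below all DMSO libraries. The means were 18.2 ± 0.8 and 15.8 ± 0.1 CPM (SD, n = 3), which is -0.20 ± 0.06 on the log2 scale (SE, 95% interval -0.32 to -0.08, adjusted p = 0.0208 in edgeR). The call held in 12 of the 16 other fits. It was narrowly lost in DESeq2 (-0.19, adjusted p = 0.0523), and without DMSO replicate 1 (-0.21, adjusted p = 0.0579 in edgeR), DMSO replicate 3 (-0.17, 0.111) or GSK-A1 replicate 1 (-0.19, 0.0806).

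PLCE1 (ENSG00000138193; chr10:94030812-94332823, plus strand, GRCh38), which binds small GTPases and also acts as an exchange factor, was at 30.8, 32.9 and 32.8 CPM with DMSO. With GSK-A1 it was at 32.2, 34.1 and 31.3 CPM. The libraries of both groups were interleaved. Its antisense transcript PLCE1-AS1, over 1.01% of its exons, had 1 count in all, and PLCH1-AS1, PLCH1-AS2 and PLCE1-AS2 were listed at 0. It alone of the 9 had a positive log2 fold change, 0.02 ± 0.05 (SE, 95% interval -0.09 to 0.12, adjusted p = 0.849 in edgeR), and the sign turned under upper-quartile scaling (-0.02), with library weights (-0.01), and without DMSO replicate 1 or GSK-A1 replicate 2 (-0.01 each).

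**Figure D2:**
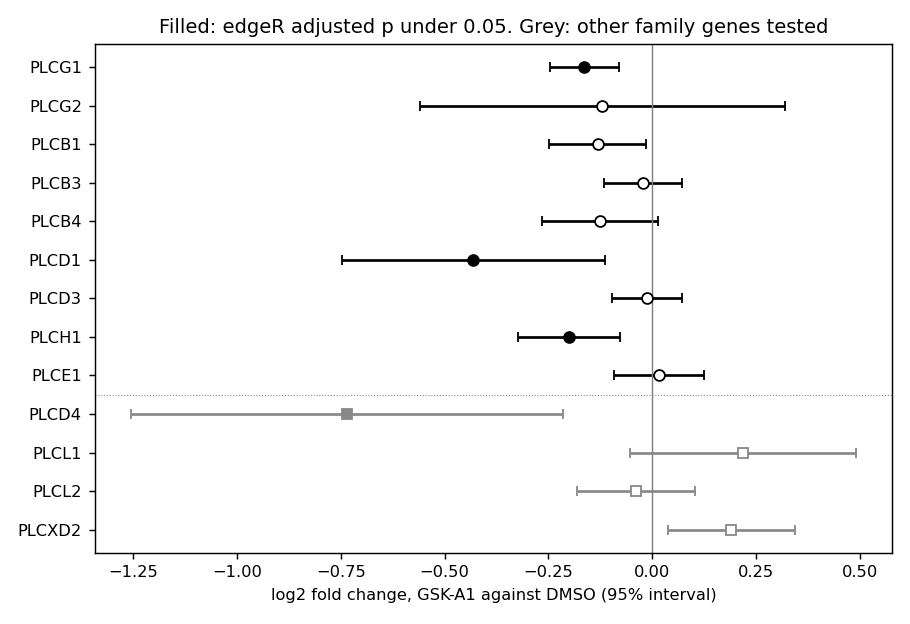
Log2 fold change of GSK-A1 against DMSO (horizontal axis) with its 95% interval for the 9 isozymes (black circles) and the other tested genes of the family (grey squares), 3 libraries per group. Filled symbols passed an edgeR adjusted p under 0.05: PLCG1, PLCH1, PLCD1 and PLCD4.

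The remaining isozymes of the family were near the limit of detection. PLCD4, a further delta isozyme, had 33, 34 and 36 counts with DMSO and 21, 18 and 18 counts with GSK-A1, or -0.74 ± 0.25 on the log2 scale (adjusted p = 0.0394 in edgeR). All its GSK-A1 libraries were below all DMSO libraries. The call was lost in limma-voom (adjusted p = 0.0507) and when DMSO replicate 2 or 3 (adjusted p = 0.0745 and 0.163 in edgeR) or GSK-A1 replicate 1 or 3 (0.140 and 0.0658) was left out. DESeq2 gave it no adjusted p. PLCB2, the beta isozyme of blood cells, had at most 5 counts in a library, PLCH2 at most 7, and the sperm isozyme PLCZ1 was listed at 0 throughout. Of the 3 tested related proteins 0 were called, against 1 higher at an unadjusted p under 0.05 in edgeR, DESeq2 and limma-voom alike and 0 adjusted calls in any of these. PLCL1 and PLCL2, which bind inositol phosphates but lack catalytic activity, were at 0.22 ± 0.13 (adjusted p = 0.235 in edgeR) and -0.04 ± 0.07 (0.719) on the log2 scale. PLCXD2 was at 8.78 ± 0.27 and 10.0 ± 0.5 CPM and did not pass (0.19 ± 0.07, adjusted p = 0.0671 in edgeR). PLCXD3 had at most 5 counts in a library and PLCXD1 was listed at 0.

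Levels were compared between isozymes only per length, as CPM per kilobase of exon in GENCODE 29. With DMSO the order was led by PLCG1 at 14.2 ± 0.04, PLCB3 at 10.9 ± 0.03 and PLCD3 at 10.2 ± 0.2 CPM per kb (SD, n = 3). PLCB3 and PLCD3 did not overlap among the DMSO libraries but did among the GSK-A1 libraries, where they stood at 10.7 ± 0.5 and 10.1 ± 0.2 CPM per kb. Each library of PLCG1 stood above every library of these. A wide step separated them from PLCH1 (2.54 ± 0.11), PLCE1 (2.49 ± 0.09), PLCB4 (1.89 ± 0.06) and PLCB1 (1.59 ± 0.04 CPM per kb). PLCH1 and PLCE1 overlapped with DMSO, while PLCE1, PLCB4 and PLCB1 did not overlap each other. With GSK-A1 every library had PLCE1, at 2.51 ± 0.11 CPM per kb, above PLCH1, at 2.21 ± 0.01. PLCD1 followed at 0.52 ± 0.03 and PLCG2 at 0.09 ± 0.03 CPM per kb. When the longest transcript was used as the length, PLCB1 ranked above PLCH1, PLCE1 and PLCB4 at 3.78 CPM per kb, and the first 3 and last 2 places were as before.

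**Figure D3:**
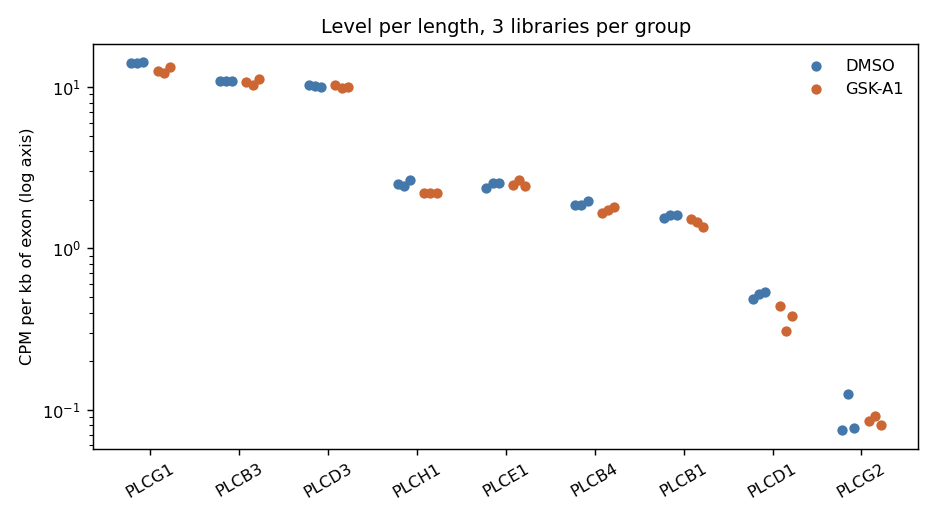
Level per length of each isozyme in CPM per kb of exon (vertical log axis) in the 3 DMSO libraries (blue) and the 3 GSK-A1 libraries (orange), ordered by the DMSO mean. PLCG1, PLCB3 and PLCD3 lie between 9.90 and 14.2 CPM per kb, and PLCG2 is at or below 0.125 CPM per kb.

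Summed over the 9 isozymes, the level was 44.3, 44.4 and 44.5 CPM per kb with DMSO and 42.1, 40.7 and 42.7 CPM per kb with GSK-A1. Every GSK-A1 library was below every DMSO library. The gamma class, almost wholly PLCG1, made up 32.2% of this sum in each DMSO library and 30.05% to 31.2% in the GSK-A1 libraries. The beta class made up 32.4% ± 0.1 with DMSO and 33.3% ± 0.3 (SD, n = 3) with GSK-A1. The delta class was at 24.1% ± 0.4 and 25.0% ± 0.5, the epsilon isozyme at 5.60% ± 0.19 and 6.02% ± 0.42, and PLCH1 at 5.72% ± 0.23 and 5.27% ± 0.15. These shares describe the libraries and were not tested.

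The 3 genes whose expression over the 6 libraries was nearest to that of PLCG1 were UBE3B, TLE5 and GDF11. Likeness was the root-mean-square difference of log2 CPM after each gene was centred on its DMSO mean, and came to 0.012, 0.015 and 0.017. UBE3B went from 47.8 ± 0.4 to 42.7 ± 2.0 CPM, with GSK-A1 replicate 2 lowest, as for PLCG1.

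**Figure D4:**
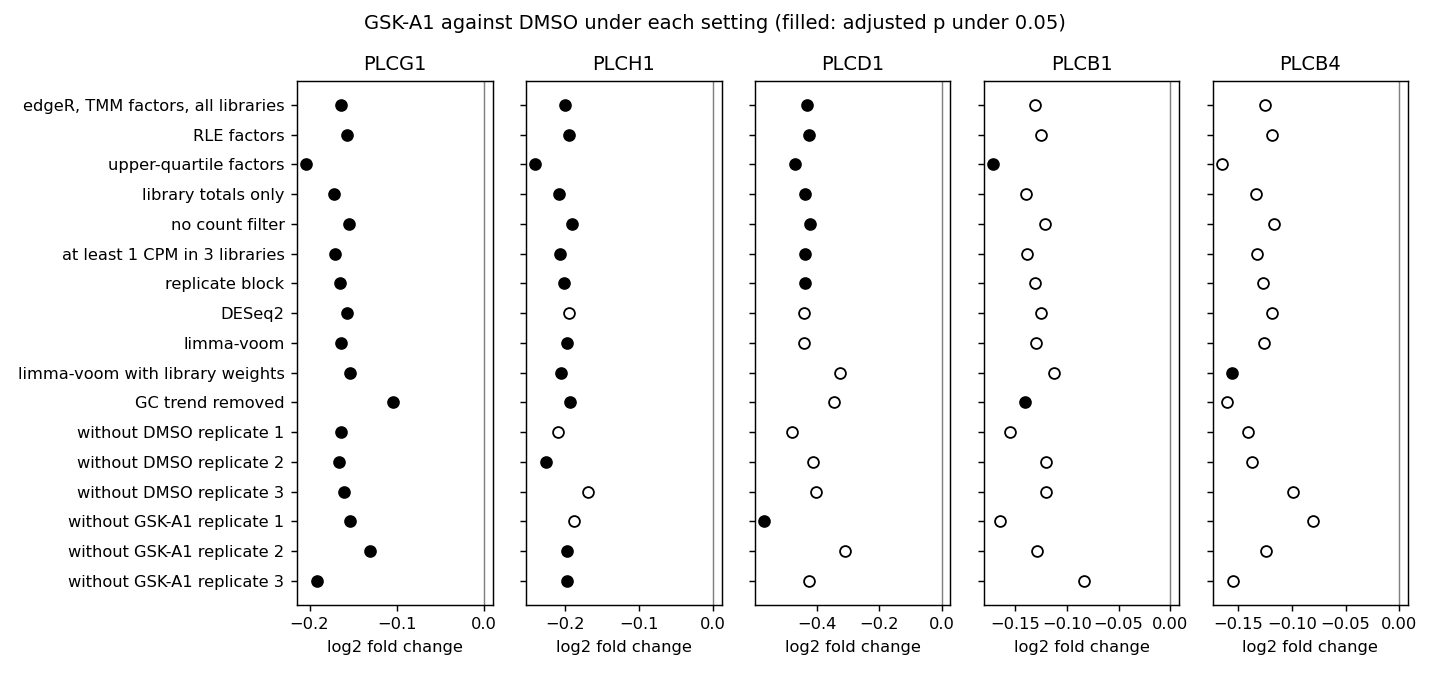
Log2 fold change (horizontal axis, scaled separately in each panel) of the 5 isozymes whose groups did not overlap, under edgeR with TMM factors and 16 other fits (rows), filled where the adjusted p was under 0.05. PLCG1 is filled in every row, PLCH1 in all but 4, and PLCD1 in 8 of 17.

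The genes that act before and after phospholipase C were read from lists by role, to place the isozymes in their pathway. Upstream of the beta class, 1 of 8 tested genes of the Gq family and its RGS regulators was called higher and 0 lower (0 lower also at an unadjusted p under 0.05, in DESeq2 and in limma-voom). It was the alpha subunit GNAQ, at 58.3 ± 0.5 and 66.2 ± 3.3 CPM (0.18 ± 0.04, adjusted p = 0.00773 in edgeR). Of 25 tested Gq-coupled receptors, 3 were called higher and 0 lower in edgeR, against 2 lower at an unadjusted p under 0.05 and 0 lower in DESeq2 and limma-voom. They were the protease-activated receptors F2RL1 (44.3 ± 0.3 to 52.4 ± 4.4 CPM) and F2RL2 (0.35 ± 0.06 to 0.85 ± 0.04 CPM) and the nucleotide receptor P2RY1. P2RY1 lost its call under upper-quartile scaling (adjusted p = 0.0687 in edgeR) and when any 1 of the DMSO libraries, or GSK-A1 replicate 3, was left out. DESeq2 gave F2RL2 no adjusted p. The medians of these lists were -0.11 and 0.04. The receptor list had 7 calls without GSK-A1 replicate 2, and the Gq list had 2.

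Upstream of the gamma class, 4 of 23 tested receptor tyrosine kinases and adaptors were called higher and 2 lower, and the median was 0.02 on the log2 scale. CBL, a ubiquitin ligase for activated receptors, led the rises (59.7 ± 1.9 to 71.3 ± 4.1 CPM, adjusted p = 0.00114 in edgeR), and BLNK, an adaptor of B cells at under 1 CPM, led the falls (-1.37 ± 0.30, adjusted p = 0.00366 in edgeR). DESeq2 called 4 higher and 0 lower, and gave BLNK no adjusted p. The edgeR count of 6 was 3 without DMSO replicate 1 or 3. Of the 10 small GTPases that act on PLCE1, 7 were called higher and 1 lower, with a median of 0.16. RHOB rose from 90.9 ± 3.6 to 348 ± 17 CPM (1.94 ± 0.04, adjusted p = 2.07e-14 in edgeR) and RHOA rose by 0.37 ± 0.04, while HRAS fell by 0.30 ± 0.06 on the log2 scale. Those 8 calls became 5 without DMSO replicate 1 or 3.

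On the substrate side, 4 of 14 tested genes were called higher and 1 lower, with a median of 0.05. The transfer protein PITPNB rose by 0.18 ± 0.04 (adjusted p = 0.00373 in edgeR). The lower call was PIP5K1C, a kinase that makes the substrate lipid. It was lost in DESeq2 (adjusted p = 0.0667, 0 lower in the list), with the GC trend removed (0.536) and in 5 of 6 fits that left out a library, all but that without GSK-A1 replicate 2. Of the other kinases of this family, PIP5K1A was called higher, from 148 ± 0.2 to 160 ± 5 CPM (0.11 ± 0.04, adjusted p = 0.0430 in edgeR). Its call was lost under upper-quartile scaling (0.179) and when any DMSO library or GSK-A1 replicate 1 was left out. PIP5K1B was not called (0.02 ± 0.12, adjusted p = 0.939 in edgeR). Leaving out DMSO replicate 1 or 2 reduced the 5 calls of the list to 1. Leaving out DMSO replicate 3 or GSK-A1 replicate 1 reduced them to 2. Downstream, 5 of 12 genes of IP3 receptors and IP3 metabolism were called higher and 1 lower, with a median of 0.10. IMPA1, an inositol monophosphatase, rose by 0.23 ± 0.05 (adjusted p = 0.00499 in edgeR). The lower call, the monophosphatase IMPA2, was named after its values were seen. It was lost in DESeq2 (adjusted p = 0.0978, 4 higher and 0 lower in the list), with the GC trend removed (0.235) and in the same 5 of 6 fits. The count of 6 was 3, 2 and 1 when DMSO replicate 1, 2 or 3 was dropped.

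Of 25 tested diacylglycerol effectors and kinases, 5 were called higher and 3 lower in edgeR, with a median of -0.00027. DESeq2 and limma-voom each called 5 higher and 1 lower. The protein kinase C substrate MARCKSL1 fell by 0.22 ± 0.03 and the diacylglycerol kinase DGKE rose by 0.26 ± 0.04 on the log2 scale. The edgeR count of 8 was 3 when DMSO replicate 1 or 3 was dropped, 4 when DMSO replicate 2 was dropped and 5 when GSK-A1 replicate 3 was dropped. Of 11 calcineurin and NFAT genes, 3 were called higher and 1 lower, with a median of 0.08. RCAN2, a calcineurin regulator, went from 5.54 ± 0.21 to 8.59 ± 0.70 CPM (0.63 ± 0.09, adjusted p = 9.38e-05 in edgeR) and NFATC4 from 14.6 ± 1.3 to 10.3 ± 1.0 CPM (-0.50 ± 0.08, adjusted p = 4.83e-04 in edgeR). Whether the isozymes differed from any of these lists was not tested.

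**Figure D5:**
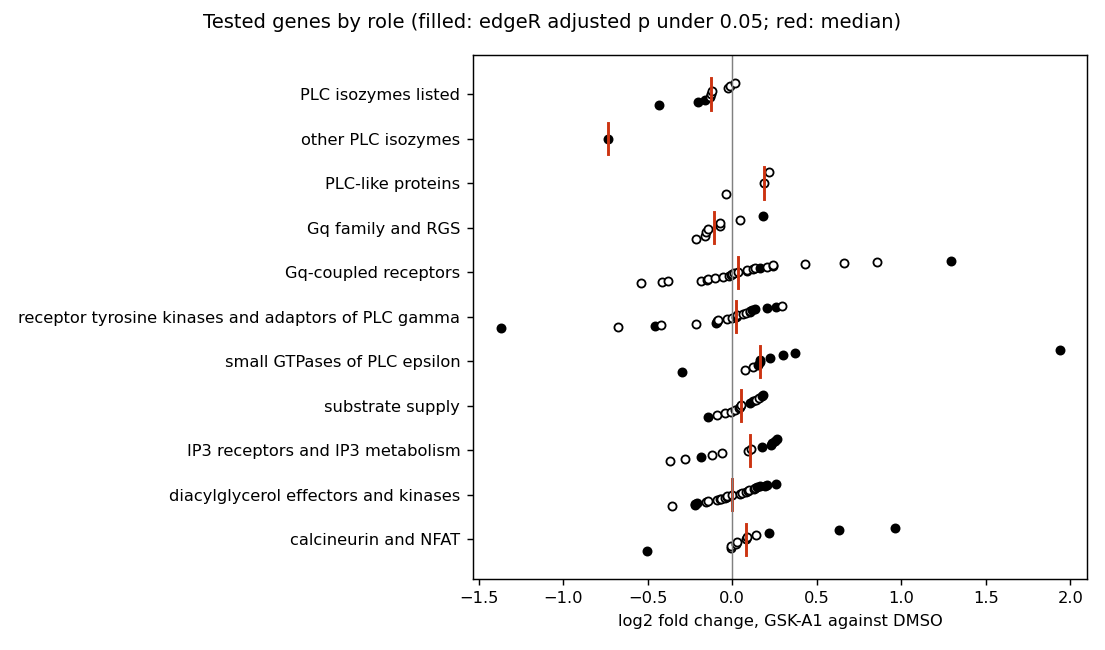
Log2 fold change of GSK-A1 against DMSO (horizontal axis) of each tested gene, in rows by role, with the 9 isozymes at the top. Filled points passed an edgeR adjusted p under 0.05 and the red line is the median, which is -0.13 for the isozymes and 0.16 for the small GTPases of PLCE1.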

How the data were processed

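RNA was sequenced from 6 HEK293 libraries. The deposited file holds the authors' counts per gene as whole numbers, with no normalization. Cutadapt 5.1, STAR 2.7.11b, featureCounts of Subread 2.1.1, DESeq2 1.38.0 and the build GRCh38.p13 are named in the submitters' processing notes without their roles. The annotation release and strand setting are not given in the sources used here, so opposite-strand overlaps are stated. The treatment text is the same for all samples, and groups were taken from the treatment labels.

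Counts were tested with edgeR 4.0.16 (R 4.3.3): filterByExpr (smallest count 10, total 15), TMM, robust quasi-likelihood F test of group over all 16754 genes, Benjamini-Hochberg adjustment, threshold 0.05. The common biological variation was 4.06%. DESeq2 1.42.0, limma 3.58.1, other scalings and filters, a GC correction (loess span 0.3; GC known for 96.1% of genes) and fits without each library were alternatives. After the main fit, the same edgeR test was run on simulated counts. They were drawn from the means of these data and their trend of dispersion with expression, without a dispersion particular to each gene. Changes of 1 and 0.5 on the log2 scale were each given to 100 genes, and 92% and 73% were recovered. All other genes were left unchanged, while 22.9% of tested genes were called in the data, so these rates need not hold for the main fit. Of the calls in that simulation, 7.82% were unchanged genes. Changes as small as those of PLCG1 and PLCH1 were not simulated. Lengths, positions and overlaps come from GENCODE 29 (GRCh38), promoters from RefSeq (6 of 9 isozymes matched).

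The isozymes and lists were chosen with earlier results of these data known. Every isozyme and related protein is named, and from each other list genes with the smallest p-values among those called (at most 4), then genes overlapping an isozyme and the 3 most like PLCG1. Outside this rule, IMPA2, PIP5K1A, PIP5K1B, ITPR1, ITPR2 and ITPR3 were named after their values were seen. RGS5, whose symbol stands on more than 1 row, was read by its Ensembl identifier.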

Additional observations from a re-analysis of the deposited data

How the results depend on the processing

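Counts were low for PLCG2, PLCD1 and PLCD4, which had at most 103 in a library. PLCG1 was called in all 16 other fits and at an adjusted p under 0.01. PLCH1 (adjusted p = 0.0208, log2 fold change -0.20) and PLCD1 (0.0470, -0.43) were not called at 0.01. At that threshold 1871 of all genes, 1 isozyme, 0 other isozymes, 3 genes of the tyrosine kinase list, 5 small GTPases, 1 substrate gene, 2 IP3 genes and 2 diacylglycerol genes were called. With DESeq2 1 isozyme and 0 other isozymes were called (PLCD1 -0.44, PLCH1 -0.19). With limma-voom PLCD1 (-0.44) and PLCD4 were lost, leaving 0 other isozymes. With library weights PLCD1 (-0.33) was lost, PLCB4 (-0.16) was gained, PLCD3 (0.0067) and PLCE1 (-0.011) turned sign, and 3 Gq genes and 9 receptors were called. With the GC trend removed PLCB1 (-0.14) was gained, PLCD1 (-0.35) was lost, PLCB3 (0.076), PLCD3 (0.080) and PI4KA (0.016) turned sign, and 5 receptors were called. Upper-quartile scaling gained PLCB1 (-0.17), turned PLCE1 (-0.024) and left 3 substrate genes, as did library totals only. A filter of at least 1 CPM removed PLCD4, leaving 0. The cause of these differences was not tested.

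In fits that each left out 1 library, 2163 to 4890 genes were called, with 1 to 2 isozymes lower and 0 higher. Calls ranged from 0 to 1 for other isozymes, 1 to 2 for the Gq list, 2 to 7 for receptors, 3 to 8 for tyrosine kinases, 5 to 9 for small GTPases, 1 to 7 for substrate supply, 1 to 7 for IP3 genes and 3 to 9 for diacylglycerol genes. Log2 fold changes ranged from -0.57 to -0.31 for PLCD1, -0.23 to -0.17 for PLCH1, -0.047 to 0.013 for PLCB3, -0.025 to 0.0042 for PLCD3, -0.015 to 0.046 for PLCE1 and -0.28 to 0.18 for PLCG2. PLCB3 (0.013), PLCD3 (0.0042) and PLCE1 (-0.011) turned sign without GSK-A1 replicate 2, PLCE1 (-0.015) without DMSO replicate 1 and PLCG2 (0.18) without DMSO replicate 2.

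With the longest transcript as length, the DMSO shares were 33.5% for beta, 21.96% for delta, 4.93% for epsilon, 5.24% for eta and 34.4% for gamma. Samples with the same replicate number deviated together only weakly (r of 0.01 to 0.03, against -0.03 to 0.01 for other pairs). Still, 5 of 6 libraries correlated best with their own number. These values do not settle whether the numbers mark pairs, and the main fit did not use them. With the replicate number as a block 4127 genes were called and the same 3 isozymes (PLCG1 -0.16, PLCH1 -0.20, PLCD1 -0.44).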
